A study of Mus musculus with 18 samples.

Results

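The mouse induced pluripotent stem (iPS) line IP36D-3 was compared with ESC2, an embryonic stem (ES) line of the same strain label. Arrays were chosen by the line name in their titles, which gave 3 arrays of IP36D-3 and 3 of ESC2, 6 of the 18 arrays in the series. IP36D-3, and the iPS lines IP14D-1 and IP20D-3 used further on, carry the strain label B6 x D2 F1, as does ESC2. The remaining arrays came from the iPS line IP14D-101 (B6 x 129S2 F1) and the ES line R1 (129X1/SvJ x 129S1 F1). All 6 lines grew with LIF, the cytokine that sustains mouse ES cells, on mouse embryonic fibroblast (MEF) feeders treated with mitomycin C. The medium contained fetal bovine serum in some cultures and Knockout serum replacement in others, without a record of the medium of each line. No treatment separates the groups. Each group is 1 line, so a difference between IP36D-3 and ESC2 cannot be told apart as one of cell type, of line or of culture. The labels do not name the reprogramming method or passage. The feeders are a source of RNA in every culture.

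iPS cells are made by returning somatic cells to a state that resembles the early embryo. The transcription factors Oct4 (encoded by Pou5f1), Nanog and Sox2 hold ES and iPS cells in that state. Imprinted genes, which are expressed from 1 parental copy, can lose their parental pattern during reprogramming, and the maternally expressed RNAs of the Dlk1-Dio3 region are the best known case in mouse iPS cells. ATF4 and its partner CHOP (Ddit3) switch on stress and amino acid genes when amino acids run short or when proteins misfold in the endoplasmic reticulum.

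Values are log2 intensities of the probe set with the highest mean for each gene, and differences are IP36D-3 minus the named line with the standard error of the limma fit. Calls needed both a limma adjusted p below 0.05 and a size of 1 or more in log2. The words "rose", "fell", "higher" and "lower" without a value are used of called genes. For the other probe sets of a gene, "higher", "lower" and "direction" give the sign of the difference from ESC2 alone, without a call. The 3 arrays of a line are biological replicates per the series' design text, but no label names separate cultures, so p-values measure the spread between arrays. That number of arrays limits the precision. The arrays of each line differed by a root mean square of 0.211 in IP36D-3 and 0.167 in ESC2, against 0.424 between the means of the lines. The beta-actin probe sets at the 3' and 5' ends of the transcript, whose ratio reads RNA and labelling quality, gave 1.24 to 1.29 on the IP36D-3 arrays and 1.48 to 1.56 on the ESC2 arrays. It moves with every difference from ESC2, and its part was not tested. Levels under about 6 lie below the median gene (5.92) and were not tested against background, which leaves the size of such differences uncertain.

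Of 18193 genes, 615 (3.38%) were called, with 347 (1.91%) higher and 268 (1.47%) lower in IP36D-3. These shares are the background for all counts of called list members against ESC2. At an adjusted p alone, 25.9% of genes were higher and 13.1% lower, the background for counts at any size. An unadjusted limma p under 0.05 was met by 8333 of 18193 genes, and by 6173 after those below the median level were dropped. The background at any size is thus not matched for level. A larger share in a list of well-expressed genes is not read as enrichment. Over all genes, 50.9% had arrays of the groups that did not overlap, and the median difference was 0.05. Among genes at or above the median level, the median difference was 0.12. All 615 called genes had arrays that did not overlap. A lack of overlap in a called gene therefore adds no support to its call. The largest changes were falls. Of 31 called genes with a difference of at least 2 in either direction, 5 were higher and 26 lower. The balance of directions depended on scaling. Equal array medians, which moved the median of all genes to -0.065, gave 195 higher and 381 lower, so higher genes made up 33.9% of the calls in place of 56.4%. Repeated quantile normalization gave 196 and 338 (36.7% higher).

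The RNAs of the imprinted Dlk1-Dio3 region on chromosome 12 held the largest fall of the comparison, that of Meg3. Meg3, a maternally expressed long noncoding RNA (chr12:109540996-109571729, RefSeq GRCm38.p6), stood at 5.95, 6.0 and 5.76 on the IP36D-3 arrays, against 11.30, 11.33 and 11.39 on the ESC2 arrays. The arrays of each line lay close together and far from those of the other. The difference was -5.44 ± 0.16, a 43.4-fold lower level (limma adjusted p = 5.79e-13), and all 10 other Meg3 probe sets were lower too. Rian, a host of small nucleolar RNAs and microRNAs in the same cluster, had 3.60, 3.73 and 3.79 in IP36D-3, against 7.53, 7.70 and 7.52 in ESC2. It fell by 3.88 on the log2 scale (14.7-fold, adjusted p = 1.46e-10). Mirg, the microRNA host transcript further along the cluster, had 5.45, 4.95 and 5.87 in IP36D-3, against 7.61, 7.63 and 7.52 in ESC2, a difference of -2.16 ± 0.17 (4.48-fold lower, adjusted p = 3.70e-08). No array of IP36D-3 reached the ESC2 range in any of these 3 genes. The paternally expressed Dlk1, a membrane protein related to Notch ligands, did not pass the test at 5.65 ± 0.06 in IP36D-3 and 5.84 ± 0.08 in ESC2 (SD, n = 3 each), both under the median gene. In bulk RNA of this kind, fewer expressing cells and less RNA per cell cannot be told apart.

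The 3 other lines with the B6 x D2 F1 label did not share 1 level. Meg3 stood at 5.90 in IP36D-3, 10.89 in IP14D-1, 5.23 in IP20D-3 and 11.34 in ESC2. Against IP14D-1, all 4 measured genes of the region were lower in IP36D-3 (background 1.5% of genes lower), with Meg3 at -4.99 (adjusted p = 9.73e-13), Rian at -3.87, Mirg at -2.64 and Dlk1 at -1.53. Against IP20D-3, none of the 4 was called in the limma fit (background 4.24% of genes in either direction), where Meg3 had a difference of 0.68 ± 0.16 (adjusted p = 0.00272) and Rian, Mirg and Dlk1 had 0.16, 0.21 and 0.44. At an adjusted p alone, Meg3 and Dlk1 passed in that comparison.

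**Figure D1:**
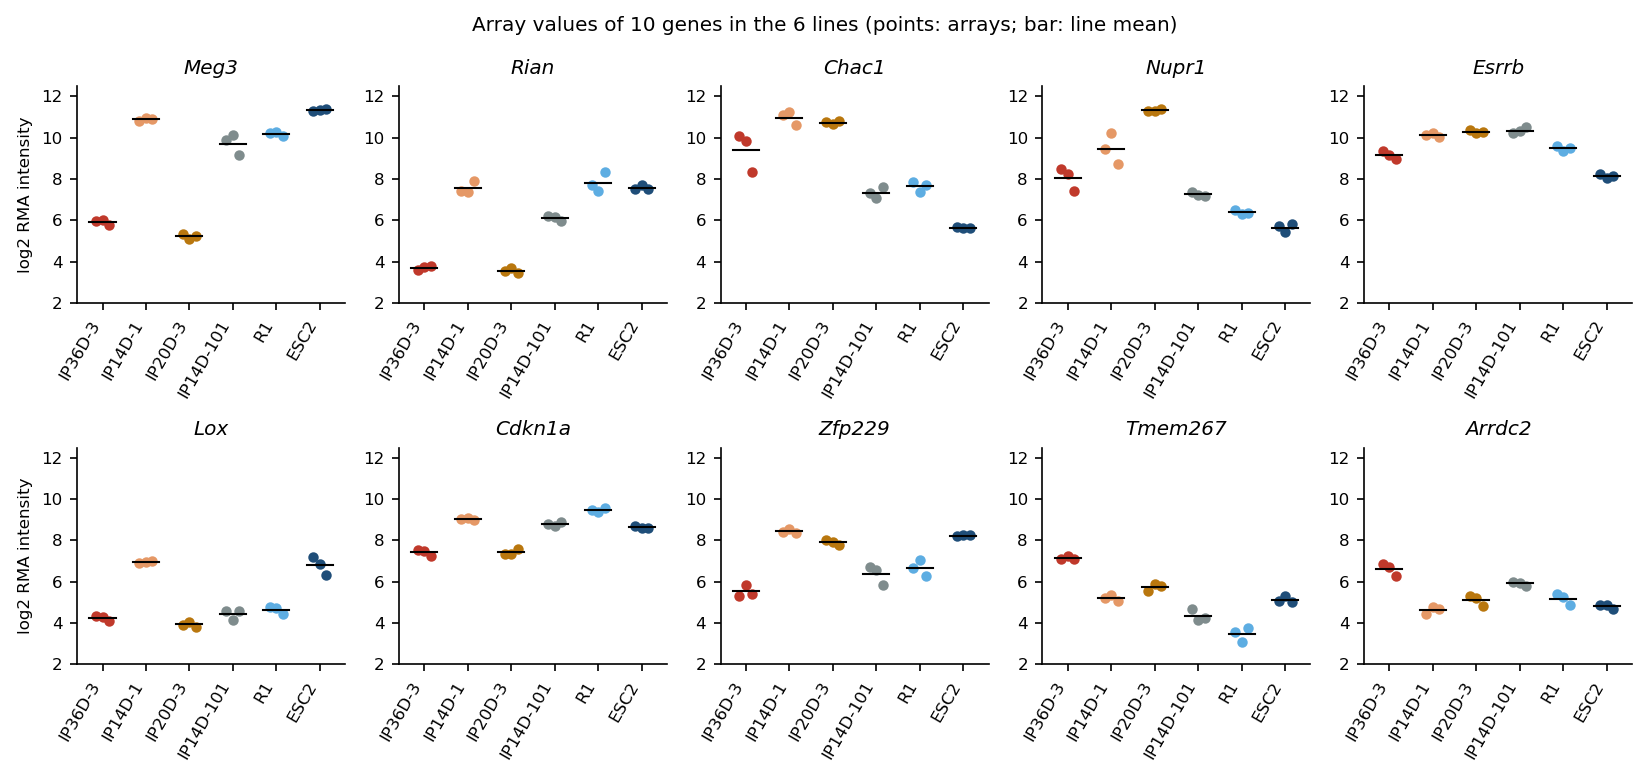
Log2 RMA intensity (vertical axis) of 10 genes in the 6 lines (horizontal axis), with 1 point per array and a bar at the mean of each line. Meg3 and Rian are low in IP36D-3 and IP20D-3, Chac1 and Nupr1 lie between ESC2 and the other B6 x D2 iPS lines, and Tmem267 is higher on the 3 IP36D-3 arrays (7.08 to 7.23) than in any other line.

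Of 40 other imprinted genes, 7 fell and 0 rose (background 1.47% lower and 1.91% higher), with a median difference of -0.04. The counts depended on the setting. With the most variable probe set 10 fell and 2 rose, and by limma's treat test 9 fell and 3 rose. With an offset of 16 before log2, 4 fell and 0 rose. Zdbf2, which is expressed from the paternal copy, had 7.52, 7.47 and 7.62 in IP36D-3, against 9.35, 9.32 and 9.27 in ESC2 (-1.78 ± 0.15, adjusted p = 7.07e-08). Plagl1, a paternally expressed zinc finger factor, had 7.96 ± 0.04 in IP36D-3 and 9.49 ± 0.28 in ESC2 (SD, n = 3), a difference of -1.53 ± 0.14. Sfmbt2, a Polycomb-type gene expressed from the paternal copy in early tissues, differed by -1.42 ± 0.10 (adjusted p = 9.18e-09). For Plagl1, 1 of its 2 other probe sets had the same direction. Magel2 (-1.19), Ube3a (-1.08), Calcr (-1.36) and Tfpi2 (-1.53) made up the rest. Calcr and Tfpi2 stayed under the median gene in both lines, with 2.57 and 4.10 for Tfpi2 in IP36D-3 and ESC2. All 5 other Ube3a probe sets were lower. The imprint regulator Zfp57, which protects methylated imprints, did not reach the size threshold at 7.03 ± 0.06 in IP36D-3 and 6.26 ± 0.05 in ESC2 (0.78 ± 0.09).

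Of 25 measured genes of endoplasmic reticulum and amino acid stress, many of them targets of ATF4 and CHOP, 7 rose and 1 fell (background 1.91% higher and 1.47% lower), with a median difference of 0.47. Chac1, which breaks down glutathione (chr2:119351242-119354326), had 10.10, 9.84 and 8.33 in IP36D-3, against 5.68, 5.62 and 5.60 in ESC2. The difference was 3.79 ± 0.31 (13.8-fold, adjusted p = 4.39e-08). Nupr1, a small stress-induced nuclear protein, had 8.5, 8.23 and 7.42 in IP36D-3, against 5.71, 5.42 and 5.83 in ESC2 (2.40 ± 0.28, adjusted p = 1.96e-06). Replicate 3 of IP36D-3 was the lowest of its line in both genes, and still above every ESC2 array.

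Ddit3, the CHOP factor itself, had 8.61, 8.23 and 7.32 in IP36D-3 and 6.35, 6.27 and 6.37 in ESC2 (1.73 ± 0.23, adjusted p = 1.13e-05). Herpud1, a membrane protein of the endoplasmic reticulum that helps to clear misfolded proteins, had 9.88, 9.65 and 8.77 in IP36D-3, against 7.67, 7.74 and 7.73 in ESC2 (1.72 ± 0.19). The same order of the IP36D-3 arrays recurred in these genes. The pseudokinase gene Trib3 (1.32 ± 0.26), the secreted glycoprotein gene Stc2 (1.35 ± 0.25) and Ppp1r15a, which directs a phosphatase to the translation factor eIF2 (1.09 ± 0.10), rose as well. Without replicate 3 of IP36D-3, 10 genes of the list rose, and without replicate 1, 6 did. The 18S signal of the arrays, another control reading, was 107, 147 and 230 in replicates 1, 2 and 3 of IP36D-3, against 169, 193 and 180 in ESC2, and its part in the spread of these genes was not tested.

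Xbp1, a transcription factor for chaperone and secretory genes, was the member of the list that fell, with 9.06, 9.29 and 9.45 in IP36D-3 and 10.24, 10.34 and 10.28 in ESC2 (-1.02 ± 0.10, adjusted p = 3.77e-07). It was not called without replicate 1 of IP36D-3 or without replicate 2 of ESC2. The chaperone gene Hspa5 was not called, at 11.87 ± 0.09 in IP36D-3 and 12.42 ± 0.07 in ESC2 (-0.54 ± 0.08). Atf4 had a difference of 0.85 ± 0.11 and the asparagine synthetase gene Asns of 0.46 ± 0.08, both under the size threshold. Sesn2 (0.16) and Ddit4 (-0.32) did not pass at any size.

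Enzymes that supply serine, one-carbon units and amino acids leaned upward by smaller steps. Of 28 measured, 2 rose and 0 fell (background 1.91% higher and 1.47% lower), with a median of 0.36. A difference above 0 was seen in 25, beside 10541 of all 18193 genes, which are not matched for level. In the upward direction, 21 passed the adjusted p alone (25.9% of all genes did, again not matched for level). Pck2, the mitochondrial phosphoenolpyruvate carboxykinase, had 8.48, 8.46 and 8.17 in IP36D-3, against 6.77, 6.93 and 6.92 in ESC2 (1.49 ± 0.14, adjusted p = 2.32e-07). Aldh18a1, which starts proline synthesis, differed by 1.13 ± 0.13, and all 4 of its other probe sets were higher. Under repeated quantile normalization it fell just short of the size threshold. Mthfd2, a mitochondrial folate enzyme, lay just under the threshold at 0.99 ± 0.14, and the serine pathway enzymes Psat1 (0.54) and Phgdh (0.33) further below. Without replicate 3 of IP36D-3, 5 genes of this list rose.

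The promoters of these genes were read because ATF4 and CHOP are known to act through a composite DNA element. The window of 250 bases before the start and 50 after it (RefSeq, GRCm38.p6) was searched on both strands for TGATGNAAN. The letters were found in 3.95% of 32851 promoters and in 3.22% of the 14452 tested genes that had one. Among genes of the stress list with a promoter, 4 of the 7 that rose held a match (Chac1, Nupr1, Herpud1, Trib3), as did 0 of the 1 that fell and 5 of the 15 not called. Of the supply list, 1 of 2 genes that rose (Pck2) and 4 of 19 not called held one. A match is a description of the letters in the window. The 250 bases upstream of 4 of these genes, and for Trib3 a window of 30 bases that begins after its start, are shown 5' to 3' on the strand of the gene, with the match in capitals. It lies in each on the opposite strand and so reads as its reverse complement, NTTNCATCA. Chac1, Herpud1 and Pck2 lie on the plus strand, and Nupr1 and Trib3 on the minus strand.
Chac1 chr2:119350992-119351241: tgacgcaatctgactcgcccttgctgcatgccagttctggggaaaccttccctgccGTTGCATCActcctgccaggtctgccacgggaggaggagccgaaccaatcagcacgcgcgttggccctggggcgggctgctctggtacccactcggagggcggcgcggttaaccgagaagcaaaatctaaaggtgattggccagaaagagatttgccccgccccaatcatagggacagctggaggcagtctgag
Nupr1 chr7:126625471-126625720: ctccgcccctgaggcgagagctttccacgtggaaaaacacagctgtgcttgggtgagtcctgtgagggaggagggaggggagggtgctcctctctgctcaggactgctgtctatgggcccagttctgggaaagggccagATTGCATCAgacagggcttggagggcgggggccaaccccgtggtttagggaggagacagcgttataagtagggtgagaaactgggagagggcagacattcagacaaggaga
Herpud1 chr8:94386179-94386428: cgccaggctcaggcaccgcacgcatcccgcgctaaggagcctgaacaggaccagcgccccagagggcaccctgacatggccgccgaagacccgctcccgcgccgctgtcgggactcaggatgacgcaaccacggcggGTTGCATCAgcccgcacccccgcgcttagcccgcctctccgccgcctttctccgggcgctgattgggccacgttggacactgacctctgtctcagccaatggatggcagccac
Pck2 chr14:55540016-55540265: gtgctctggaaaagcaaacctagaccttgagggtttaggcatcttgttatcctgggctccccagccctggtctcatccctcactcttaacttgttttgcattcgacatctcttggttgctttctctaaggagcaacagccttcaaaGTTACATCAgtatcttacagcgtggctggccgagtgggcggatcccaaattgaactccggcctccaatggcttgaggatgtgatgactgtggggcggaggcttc
Trib3 chr2:152344028-152344057: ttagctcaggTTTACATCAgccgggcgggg

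The match began 194 bases before the start of Chac1, 111 before that of Nupr1, 113 before that of Herpud1 and 104 before that of Pck2. Chac1 and Herpud1 held the same 9 letters, while the changes of these genes were 3.79 and 1.72.

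Against the other iPS lines of the strain label, calls in the stress list ran downward in IP36D-3. Of 25 measured, 0 were higher and 10 lower than in IP14D-1 (background 1.89% higher and 1.5% lower), with a median of -0.58. Against IP20D-3, 1 was higher and 11 were lower (background 1.89% and 2.36%), with a median of -0.92. Chac1 stood at 9.42 in IP36D-3, 10.97 in IP14D-1, 10.73 in IP20D-3 and 5.63 in ESC2. Nupr1 had 8.05 in IP36D-3, 9.46 in IP14D-1, 11.33 in IP20D-3 and 5.65 in ESC2, and its difference from IP20D-3 was -3.28 (adjusted p = 4.66e-08). For Chac1 and Nupr1, IP36D-3 thus lay between ESC2 and both other iPS lines of the label. IP14D-101 had 7.34 and R1 7.65 for Chac1. The gene higher than in IP20D-3 was Hspa5 (1.07).

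Of 20 measured core pluripotency genes, 0 were called by limma in either direction, and the median difference was 0.02. At an adjusted p under 0.05 at any size, 14 passed, 9 higher and 5 lower (background 25.9% higher and 13.1% lower, not matched for level). With the most variable probe set of each gene, 1 rose and 1 fell. Pou5f1 had 12.48, 12.52 and 12.46 in IP36D-3, against 12.21, 12.23 and 11.92 in ESC2 (0.36 ± 0.08). Nanog had 11.24 ± 0.07 in IP36D-3 and 11.27 ± 0.07 in ESC2 (SD, n = 3), a difference of -0.03 ± 0.08. Sox2 differed by -0.28 ± 0.08. All 20 had a mean above 6 in a line. The largest positive differences were those of Fgf4 (0.71), Utf1 (0.71) and Lin28a (0.70), growth factor, chromatin and RNA-binding genes of pluripotent cells, which were chosen after their values were seen.

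The regulators of the naive state, the ground condition of the preimplantation epiblast, leaned upward by small steps. Of 25 measured, 2 rose (8.0%) and 0 fell (background 1.91% higher and 1.47% lower), and the median was 0.28. The orphan nuclear receptor Esrrb had 9.37, 9.14 and 8.95 in IP36D-3, against 8.23, 8.07 and 8.16 in ESC2 (1.00 ± 0.10, adjusted p = 5.92e-07). Klf5, a Krüppel-like factor of ES cells, had 11.26, 11.24 and 11.02 in IP36D-3, against 10.23, 10.16 and 10.12 in ESC2 (1.01 ± 0.08). No array of either gene crossed between the lines, but both lie at the size threshold, and neither was called under equal array medians (0.88 and 0.89) or repeated quantile normalization (0.91 and 0.97). The list had 0 calls without replicate 1 of IP36D-3 or without replicate 2 of ESC2, and 1 without replicate 2 of IP36D-3 or replicate 3 of ESC2. Prdm14 (0.93), Tcl1 (0.93), Nr0b1 (0.80) and Tfcp2l1 (0.76) were not called. The reprogramming factors Klf4 (0.28 ± 0.07) and Myc (-0.42 ± 0.09) were not called.

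Of 19 genes of the primed, postimplantation epiblast, 0 rose and 1 fell (5.3%, background 1.47% lower), with a median of -0.23. Without replicate 2 of ESC2, 2 fell, and 1 rose and 1 fell without replicate 3 of IP36D-3 or without replicate 1 of ESC2. The POU factor Pou3f1 had 8.03, 8.20 and 8.43 in IP36D-3, against 9.41, 9.69 and 9.41 in ESC2 (-1.29 ± 0.14, adjusted p = 8.40e-07). Fgf5 (-0.44 ± 0.21), Otx2 (0.02 ± 0.16) and Dnmt3b (-0.23 ± 0.07) were not called. Set against IP20D-3, the same lists looked otherwise. There, 10 of the 19 primed genes were higher in IP36D-3 and 0 lower, with a median of 1.26, while 3 of 25 naive genes were higher and 12 lower, with a median of -0.83 (background 1.89% higher and 2.36% lower). Fgf5 had 6.42 in IP36D-3 and 4.09 in IP20D-3 (2.33, adjusted p = 9.30e-08), Otx2 8.75 and 6.56, and the DNA methyltransferase Dnmt3a 10.20 and 7.94. Tbx3, a naive-state T-box factor, had 7.65 in IP36D-3 and 10.11 in IP20D-3 (-2.45), and Nr0b1 9.59 and 11.30. Against IP14D-1, 0 of the 19 primed genes were called in the limma fit, and 0 of the naive genes were higher and 5 lower, among them Klf2 (-1.38), Tbx3 (-1.32) and Zfp57 (-1.67), on a background of 1.89% higher and 1.5% lower. The genes named for the other iPS lines were chosen after their values were seen.

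Among fibroblast and contractile genes, the calls ran downward in IP36D-3. Of 35 fibroblast and feeder markers, 10 fell (28.6%) and 0 rose (background 1.47% lower and 1.91% higher), with a median of -0.37. Lox, which crosslinks collagen, had 4.36, 4.31 and 4.09 in IP36D-3, against 7.22, 6.86 and 6.35 in ESC2 (-2.56 ± 0.17, adjusted p = 6.59e-09). Thbs1, the matrix protein thrombospondin, had 5.56, 5.43 and 5.10 in IP36D-3, against 7.64, 7.55 and 7.74 in ESC2 (-2.28 ± 0.13). Both were low in IP36D-3 on every array. The collagen genes Col5a2 (-2.22 ± 0.23) and Col1a2 (-1.95 ± 0.11), the smooth muscle actin Acta2 (-2.02 ± 0.10), the intermediate filament gene Vim (-1.14 ± 0.08) and the cadherin Cdh11 (-2.23 ± 0.15) fell too. The other Cdh11 probe set did not share its direction, and for Acta2 and Col1a2 1 of 2 others did. The summed linear intensity of the 35 markers was 5875 to 6160 on the IP36D-3 arrays and 8403 to 9339 on the ESC2 arrays. Of the 35, 20 were under a mean of 6 in both lines, among them the fibroblast collagens Col1a1 (4.57 and 5.07 in IP36D-3 and ESC2) and Col3a1 (3.43 and 3.95), Dcn (4.52 and 5.10), Lum (3.33 and 3.35), Postn (3.61 and 3.96) and Pdgfra (3.88 and 3.85). The part of feeder RNA in the falls of this and the next lists was not tested.

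Of 26 contractile genes that respond to SRF and YAP, which read actin tension, 7 fell (26.9%) and 0 rose. The background was 1.47% lower and 1.91% higher, and the median of the list was -0.59. This list shares Acta2, Tagln and Ccn2 with the fibroblast markers. Cald1, an actin-binding protein, had 8.61, 8.78 and 8.83 in IP36D-3, against 10.07, 10.03 and 10.17 in ESC2 (-1.35 ± 0.12, adjusted p = 8.57e-08). Ankrd1, a classical YAP target, differed by -1.28 ± 0.11, Anxa3 by -1.15 ± 0.21, the skeletal actin Acta1 by -1.13 ± 0.14, Tagln by -1.09 ± 0.12 and Ccn2 by -1.0 ± 0.08. Ccn2 lay at the threshold. With an offset of 16 before log2, 4 of the 7 were called. The 22 basement membrane and integrin genes had 0 calls in the limma fit, with a median of 0.03, and 2 rose by limma's treat test. The adjusted p at any size was passed by 14, 6 higher and 8 lower (background 25.9% and 13.1%). Against IP14D-1, 12 fibroblast markers and 7 contractile genes were lower and 0 of either higher (background 1.5% lower and 1.89% higher). Against IP20D-3, 3 fibroblast markers and 7 contractile genes were higher and 0 lower (background 1.89% higher and 2.36% lower). The summed marker intensity was 11430 to 11981 in IP14D-1 and 5968 to 6294 in IP20D-3.

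Targets of p53 and inhibitors of the cell cycle leaned downward in IP36D-3. Of 23 measured, 6 fell (26.1%) and 1 rose (4.3%), on a background of 1.47% lower and 1.91% higher, with a median of -0.47. Cdkn1a, the p21 inhibitor that p53 induces, had 7.52, 7.50 and 7.26 in IP36D-3, against 8.69, 8.62 and 8.60 in ESC2 (-1.22 ± 0.09, adjusted p = 1.63e-08). Aen, an apoptotic nuclease, had 8.16, 8.15 and 8.13 in IP36D-3, against 9.68, 9.73 and 9.76 in ESC2 (-1.58 ± 0.09, adjusted p = 1.24e-09). The arrays of the lines did not overlap in either gene. Cdkn2b, the p15 inhibitor, differed by -1.52 ± 0.15, the kinase gene Plk2 by -1.26 ± 0.13, the translesion polymerase Polk by -1.12 ± 0.14 and the receptor Eda2r by -1.06 ± 0.11. The other Plk2 probe set did not share its direction. Mdm2, the ligase that restrains p53, was not called at -0.78 ± 0.09. The member that rose was Cdkn1b, the p27 inhibitor, with 7.17, 7.37 and 7.28 in IP36D-3 and 5.98, 6.13 and 6.07 in ESC2 (1.21 ± 0.11). Of 35 cell cycle genes, 0 were called by limma, with a median of 0.21. The adjusted p at any size was passed by 24, 19 higher and 5 lower (background 25.9% and 13.1%, not matched for level). In this list 1 gene fell under equal array medians, repeated quantile normalization or without replicate 3 of IP36D-3.

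**Figure D2:**
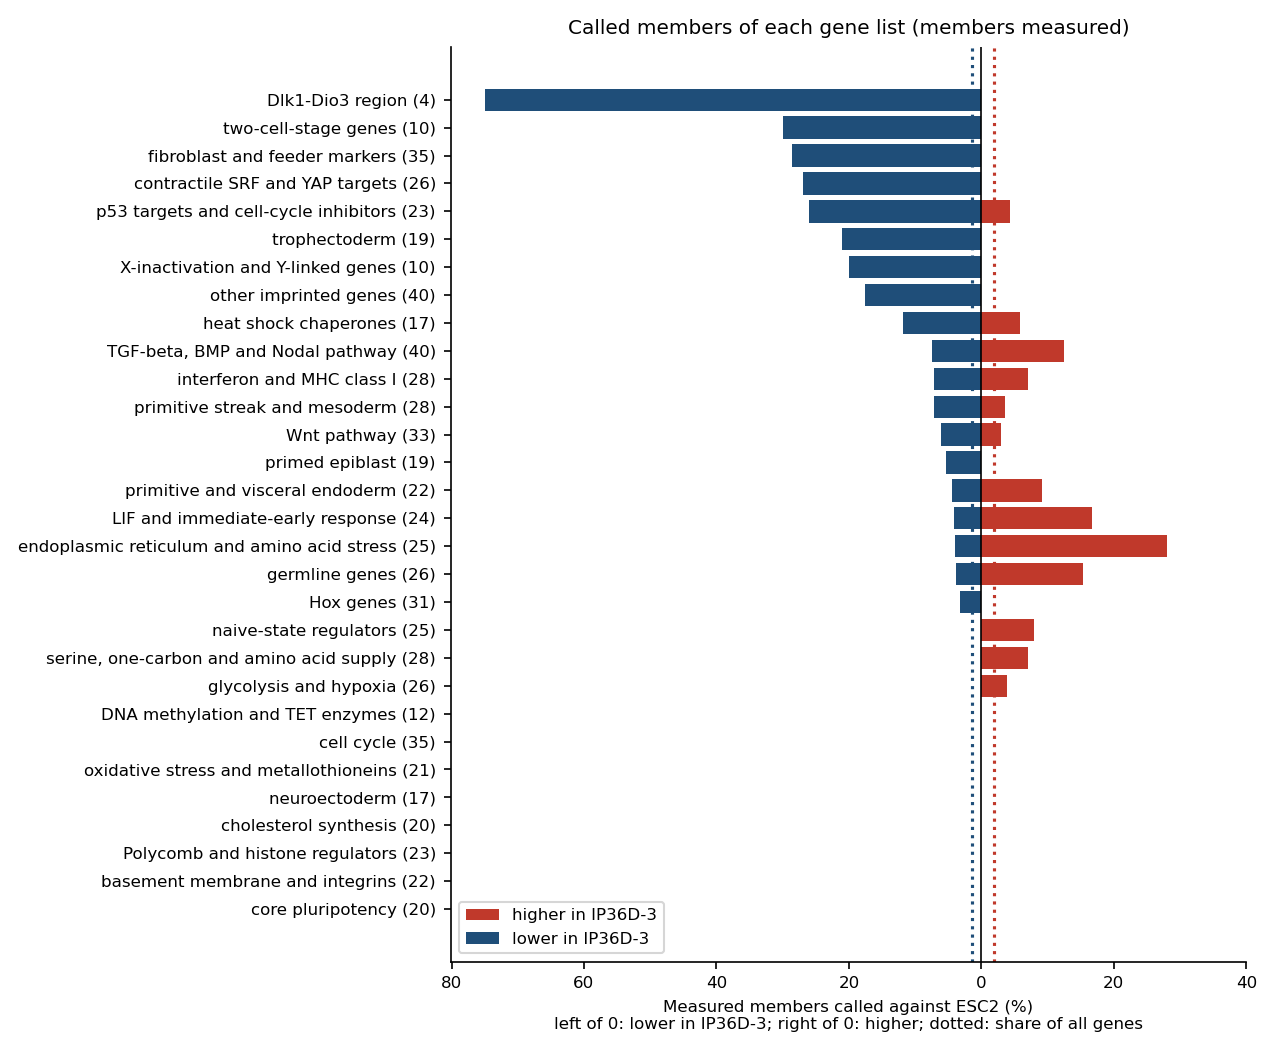
Share of the measured members of each of 30 gene lists (vertical axis, with the number measured in brackets) that were higher (right of 0, red) or lower (left of 0, blue) in IP36D-3 than in ESC2, in percent (horizontal axis). Dotted lines mark the shares over all genes, 1.91% higher and 1.47% lower, and the stress list reaches furthest to the right while the Dlk1-Dio3 list reaches furthest to the left.

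Signalling genes changed in both directions. Of 24 genes of the LIF and immediate-early response, 4 rose (16.7%) and 1 fell (4.2%), with a median of 0.26. The background was 1.91% higher and 1.47% lower. Ptgs2, the inducible cyclooxygenase, was the fall, with 3.56, 4.25 and 3.60 in IP36D-3 and 6.78, 7.0 and 7.07 in ESC2 (-3.15 ± 0.20, 8.87-fold lower, adjusted p = 5.13e-09). The rises were Spry4, a feedback inhibitor of growth factor signalling (1.45 ± 0.13), the AP-1 subunit Junb (1.30 ± 0.12), Ier2 (1.12 ± 0.08) and Klf10 (1.09 ± 0.13), while Fos (-0.45) and Egr1 (0.24) were not called. Klf10 was not called under equal array medians (0.97) or repeated quantile normalization (0.996).

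Of 40 genes of the TGF-beta, BMP and Nodal pathways, 5 rose and 3 fell, with a median of -0.05. Among ligands and their inhibitors, Tgfb2 (-1.65 ± 0.13), the activin subunit Inhba (-1.44 ± 0.12) and the activin antagonist Fst (-1.45 ± 0.17) fell, the first with means of 3.59 in IP36D-3 and 5.25 in ESC2. Of receptors, Amhr2, the anti-Müllerian hormone receptor, had 7.80, 7.69 and 7.59 in IP36D-3, against 5.84, 5.82 and 5.87 in ESC2 (1.85 ± 0.10, adjusted p = 6.31e-10), and the activin receptor Acvr1b rose by 1.03 ± 0.08, without its other probe set. Of nuclear targets, Klf11 rose by 1.94 ± 0.12 and the BMP target Id1 by 1.01 ± 0.16. Id1 stood at 10.84 in IP36D-3, 9.63 in IP14D-1, 8.78 in IP20D-3 and 9.84 in ESC2, and was not called under equal array medians (0.89) or repeated quantile normalization (0.95). Those scalings each left 2 of the 5 rises, and the fit without replicate 1 of IP36D-3 left 3. Of 33 Wnt pathway genes, 1 rose (3.0%) and 2 fell (6.1%), with a median of -0.11. The Wnt antagonist Sfrp1 had 8.26, 8.38 and 8.31 in IP36D-3, against 7.23, 7.12 and 7.21 in ESC2 (1.13 ± 0.08), and its 4 other probe sets were higher too. The Wnt target Sp5 (-1.62 ± 0.15) and the ligand Wnt8a (-1.21 ± 0.16) fell. Sfrp1 was not called under repeated quantile normalization (0.98).

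Calls among markers of differentiated cell types differed by list (background 1.91% higher and 1.47% lower). Of 22 primitive and visceral endoderm genes, 2 rose (9.1%) and 1 fell (4.5%), and 17 were under 6 in both lines. The defining factors Gata4 (4.75 and 4.16 in IP36D-3 and ESC2), Gata6 (4.25 and 3.76) and Sox17 (4.93 and 4.74) were among those 17. The rises were the apolipoprotein Apoe (11.94 in IP36D-3 and 10.84 in ESC2, 1.11 ± 0.09) and the endocytic receptor Cubn (1.19 ± 0.16, with 5.36 and 4.17). The fall was Amot (-1.11 ± 0.12). Apoe alone made most of the list's summed intensity of 4644 to 5233 in IP36D-3 and 3128 to 3150 in ESC2. Of 28 primitive streak and mesoderm genes, Id1 rose and Hoxb1 (-1.5 ± 0.19) and Cdx2 (-1.19 ± 0.11) fell, with 23 under 6 in both lines and a median of -0.17. Id1 was not called without replicate 1 or 2 of IP36D-3 or without replicate 2 of ESC2, and without the last 4 mesoderm genes fell. Of 17 neuroectoderm genes, 0 were called by limma, with 8 under 6 in both lines and a median of 0.07. The adjusted p at any size was passed by 8, 4 higher and 4 lower (background 25.9% and 13.1%). Of 19 trophectoderm genes, 4 fell (21.1%) and 0 rose, with 10 under 6 in both lines and a median of -0.32. The keratin Krt8 had 8.57, 8.68 and 8.71 in IP36D-3, against 9.64, 9.89 and 9.74 in ESC2 (-1.10 ± 0.14), and Tfap2c (-1.13 ± 0.10), Rhox9 (-1.10 ± 0.09) and Cdx2 were the others. Of Tfap2c's 2 other probe sets, 1 shared its direction. Of 31 Hox genes, 1 fell (Hoxb1, 3.2%), 29 were under 6 in both lines, and the median was -0.11.

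Germline genes moved apart from each other. Of 26 measured, 4 rose (15.4%) and 1 fell (3.8%), on a background of 1.91% higher and 1.47% lower, with a median of 0.17. Rhox5, an X-linked homeobox gene of reproductive tissue, had 9.05, 9.03 and 9.08 in IP36D-3, against 11.10, 11.08 and 11.08 in ESC2 (-2.03 ± 0.10, 4.08-fold lower, adjusted p = 6.31e-10). The meiotic recombinase Dmc1 had 7.90, 8.10 and 7.90 in IP36D-3, against 6.55, 6.45 and 6.79 in ESC2 (1.37 ± 0.13). The meiotic cohesin Stag3 (1.15 ± 0.12), Tex14 of the germ cell bridge (1.10 ± 0.11) and the Piwi protein Piwil2 (1.06 ± 0.12) rose. Repeated quantile normalization left 1 of these 4 calls, and equal array medians left 2. Without replicate 2 of ESC2, 2 germline genes fell. Of 10 measured genes of the early cleavage embryo, 3 fell and 0 rose, with 7 under 6 in both lines and a median of -0.23. Among genes at or above the median level, 1 of this list fell. Usp17la, a deubiquitinase gene, had 3.94, 3.97 and 4.04 in IP36D-3, against 6.82, 6.31 and 6.92 in ESC2 (-2.70 ± 0.15, adjusted p = 9.94e-10), and Tcstv1 and Calcoco2 differed by -1.12 each. Usp17la belongs to a multigene family, so its probes may read several copies.

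Of 12 genes of DNA methylation and TET enzymes, 0 were called by limma, with a median of 0.40 and a range of -0.44 to 0.78. The adjusted p at any size was passed by 11, 8 higher and 3 lower (background 25.9% and 13.1%, not matched for level). Dnmt3a had 10.20 ± 0.03 in IP36D-3 and 9.61 ± 0.10 in ESC2 (SD, n = 3). Of 23 Polycomb and histone regulators, 0 were called, with a median of 0.05, and 13 passed the adjusted p at any size (9 higher and 4 lower). With the most variable probe set 1 rose and 1 fell, and by limma's treat test 1 fell. Of 10 X-inactivation and Y-linked genes, 2 fell (20.0%, background 1.47%), both Y-linked. The demethylase Uty had 5.81, 6.12 and 5.97 in IP36D-3, against 7.33, 7.54 and 7.76 in ESC2 (-1.58 ± 0.20, with its 3 other probe sets lower), and the translation factor Eif2s3y had 8.08 in IP36D-3 and 9.35 in ESC2 (-1.27 ± 0.12), without its other probe set. Xist, the RNA that silences an X chromosome, was not called at 7.03 ± 0.10 in IP36D-3 and 6.53 ± 0.12 in ESC2 (0.50 ± 0.18).

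Of 26 glycolysis and hypoxia genes, Pfkl, a phosphofructokinase, rose by 1.23 ± 0.09 and 0 fell, with a median of 0.32. In this list 21 genes had a difference above 0 (10541 of all 18193 genes did, not matched for level). In the upward direction, 15 passed the adjusted p alone (25.9% of all genes did, again not matched for level). Of 20 cholesterol synthesis genes, 0 were called by limma, with a median of 0.05, and 2 fell with the most variable probe set. The adjusted p at any size was passed by 11, 5 higher and 6 lower (background 25.9% and 13.1%). Against each of IP14D-1 and IP20D-3, 5 of the 20 were higher in IP36D-3 and 0 lower, and the medians were 0.71 and 0.75. The background was 1.89% higher in each comparison, and 1.5% and 2.36% lower. Fdps, the farnesyl diphosphate synthase, was called in both (1.51 and 1.60), with Sc5d, Hsd17b7, Fdft1 and Msmo1 against IP14D-1 and Dhcr7, Idi1, Hmgcs1 and Insig1 against IP20D-3.

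Of 17 heat shock chaperones, 1 rose (5.9%) and 2 fell (11.8%), with a median of -0.11. The background was 1.91% higher and 1.47% lower. Hspa1b, an inducible Hsp70, had 6.40, 6.53 and 7.27 in IP36D-3, against 8.54, 8.91 and 8.87 in ESC2 (-2.04 ± 0.18). Hspa1b has a near-identical copy, so the probes may read both. The small heat shock genes Cryab (-1.62 ± 0.18) and Hspb8 (1.54 ± 0.09) changed in opposite directions. Of 21 oxidative stress genes, 0 were called by limma, with a median of 0.15, while 2 rose and 1 fell with the most variable probe set. The adjusted p at any size was passed by 13, 9 higher and 4 lower (background 25.9% and 13.1%). Of 28 interferon and MHC class I genes, 2 rose (7.1%) and 2 fell (7.1%), with a median of 0.00. The GTPases Irgm1 (-2.05 ± 0.16) and Gbp2 (-1.24 ± 0.13) fell, and Stat2 (1.57 ± 0.16) and the immunoproteasome subunit Psmb9 (1.00 ± 0.14) rose, Psmb9 without a call under equal array medians (0.88), repeated quantile normalization (0.85) or without replicate 1 or 3 of IP36D-3 or replicate 3 of ESC2. Under equal array medians, the medians of the core pluripotency, basement membrane, endoderm, neuroectoderm, Polycomb, cholesterol, interferon, and X-inactivation and Y-linked lists turned negative.

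Outside the lists, several genes of little-known role in pluripotent cells changed strongly. The serine protease Prss23 had 3.57, 4.12 and 4.20 in IP36D-3, against 7.58, 7.68 and 8.07 in ESC2 (-3.81 ± 0.20, 14.1-fold lower, adjusted p = 6.31e-10). The RNA-binding protein gene Rbm45 had 6.29, 6.04 and 6.95 in IP36D-3, against 9.50, 9.73 and 9.56 in ESC2 (-3.17 ± 0.18). Each was low on all IP36D-3 arrays. Tmem87a (-2.85 ± 0.16), the lipid receptor Lpar4 (-2.39 ± 0.19), the transcription cofactor Vgll3 (-2.28 ± 0.16) and the RNA-binding gene Mex3b (-2.22 ± 0.16) fell as well. Rbm45 and Tmem87a stood at 9.07 and 7.07 in IP14D-1 and at 6.06 and 4.82 in IP20D-3.

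Among rises, Zmat4, a zinc finger gene on chromosome 8, had 6.72, 7.24 and 6.57 in IP36D-3, against 4.39, 4.50 and 4.47 in ESC2 (2.39 ± 0.17, adjusted p = 1.03e-08), and 1 of its 2 other probe sets was higher. Catsperz, a subunit of the sperm calcium channel, had 6.29, 6.61 and 6.25 in IP36D-3, against 4.10, 3.98 and 4.26 in ESC2 (2.27 ± 0.14). Txnip, an inhibitor of thioredoxin and glucose uptake, had 10.97, 10.88 and 10.35 in IP36D-3, against 8.90, 8.83 and 9.01 in ESC2 (1.82 ± 0.13). All of these arrays lay above the ESC2 range, as in every gene called higher. Patl2, an RNA-binding gene of oocytes (1.85 ± 0.14), the lysosomal sialidase Neu1 (1.83 ± 0.09) and Fam111a (1.78 ± 0.08, adjusted p = 1.08e-10) completed the leading rises beside those named elsewhere, and for Neu1 1 of its 2 other probe sets was higher.

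Genes of chromosome 8 were higher as a group. The chromosome held 932 of the tested genes and 88 of the 347 rises, so 9.44% of its genes rose (background 1.91%), and 4 fell. No other chromosome passed 2.30%. Among the 513 genes of chromosome 8 at or above the median level, 463 (90.3%) had a difference above 0, and the median difference was 0.56. On the other 19 chromosomes that median lay between -0.02 and 0.21, with 47.6% to 70.4% of genes above 0. Divided by position into 5 stretches of near equal gene number, chromosome 8 had medians of 0.53, 0.60, 0.59, 0.53 and 0.51, so no stretch stood apart. Relative to the ESC2 mean, chromosome 8 exceeded the other chromosomes by 0.45 on each of the 3 IP36D-3 arrays, and the ESC2 arrays lay between -0.004 and 0.009. The same measure was 0.002 to 0.049 in IP14D-1, 0.211 to 0.219 in IP20D-3, 0.052 to 0.116 in IP14D-101 and 0.129 to 0.146 in R1. DNA copy number was not analysed here. Under equal array medians 49 chromosome 8 genes rose, under repeated quantile normalization 53 and with an offset of 16 before log2 51.

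**Figure D3:**
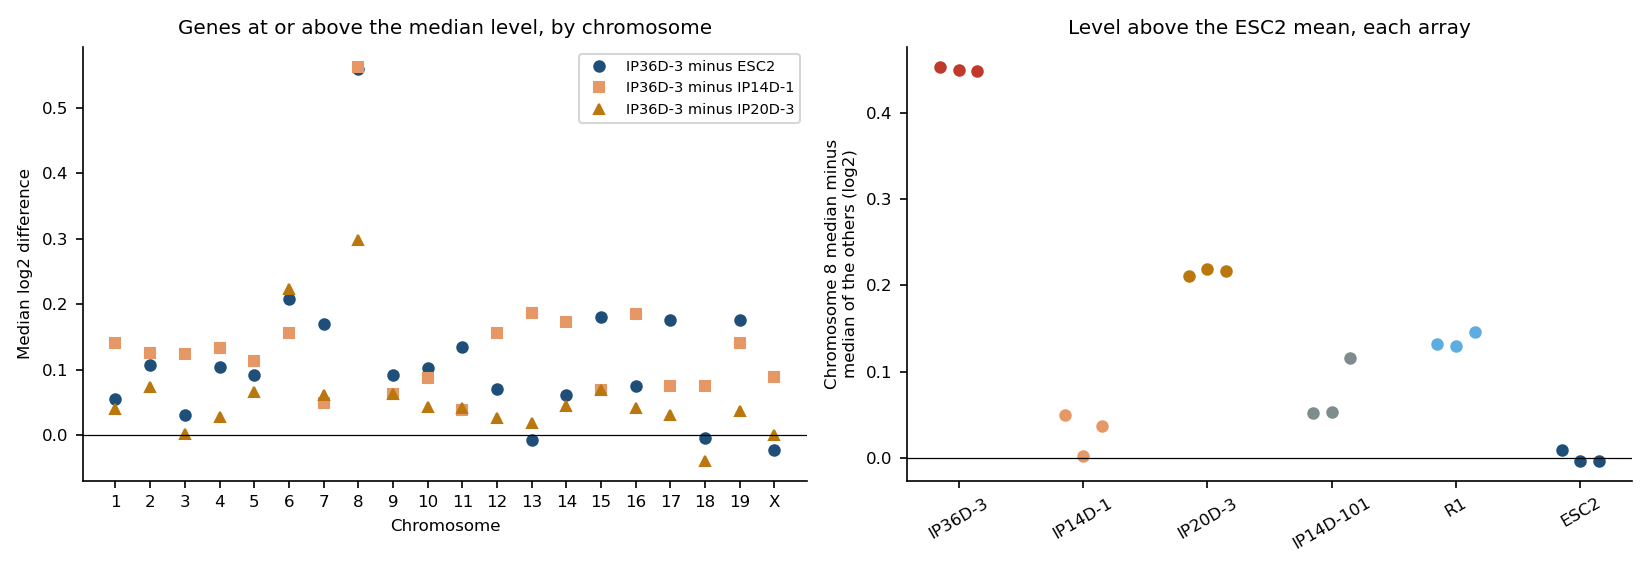
Left, the median log2 difference of IP36D-3 from ESC2, IP14D-1 and IP20D-3 (vertical axis) over the genes at or above the median level of each chromosome (horizontal axis). Right, the median of chromosome 8 minus that of the other chromosomes (log2, relative to the ESC2 mean) on each array of the 6 lines, where the 3 IP36D-3 arrays lie at 0.45 and those of IP20D-3 at 0.21 to 0.22.

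Of the leading rises of chromosome 8, the protein arginine methyltransferase Prmt7 had 10.78, 10.75 and 10.76 in IP36D-3, against 9.39, 9.40 and 9.42 in ESC2 (1.36 ± 0.08, adjusted p = 1.24e-09). Aars, the alanyl-tRNA synthetase, had 11.66, 11.59 and 11.52 in IP36D-3, against 10.36, 10.13 and 10.14 in ESC2 (1.38 ± 0.09). Their spread over arrays was small beside the difference. Gadd45gip1 of the mitochondrial ribosome (1.36), Frg1 (1.36), the exchange factor Mcf2l (1.38), Plvap of endothelial diaphragms (1.40) and the peptidase Pgpep1 (1.44) followed, together with Zmat4, Arrdc2 and Herpud1. With the most variable probe set in place of the brightest, Pgpep1 was not called (0.20), and the other probe set of Gadd45gip1 did not share its direction. Herpud1, Junb, Ier2 and Sfrp1 of the lists above are also on this chromosome. Of the 4 falls, Mfap3l (-1.52 ± 0.18) and Acta1 met the rule for naming. At the same level filter, the median of chromosome 8 was 0.56 against IP14D-1 and 0.30 against IP20D-3, where the other chromosomes lay between 0.04 and 0.19 and between -0.04 and 0.22.

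On the X chromosome, 24 of 617 genes were lower (3.89%, background 1.47%) and 4 higher. Its median at or above the median level was -0.02, beside -0.01 on chromosomes 13 and 18. Against IP14D-1, 8 X genes were lower and 4 higher (background 1.5% lower and 1.89% higher). Against IP20D-3, 21 were lower and 17 higher (background 2.36% lower and 1.89% higher).

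At 43 genes (0.236%), IP36D-3 was called in the same direction against ESC2, IP14D-1 and IP20D-3, 19 higher (0.104%) and 24 lower (0.132%). The split depended on the setting, with 5 higher and 16 lower at an offset of 16 before log2, 6 and 20 among genes at or above the median level, 53 and 24 by limma's treat test, and 1250 and 376 at an adjusted p alone. These are the genes that set IP36D-3 apart from the other lines of its strain label. Arrdc2, an arrestin-like gene related to Txnip on chromosome 8, had 6.85, 6.69 and 6.30 in IP36D-3 and means of 4.63 in IP14D-1, 5.11 in IP20D-3 and 4.81 in ESC2 (1.80 ± 0.15 against ESC2). Tmem267, a membrane protein gene, had 7.08, 7.23 and 7.11 in IP36D-3 and means of 5.22 in IP14D-1, 5.75 in IP20D-3 and 5.14 in ESC2 (2.01 ± 0.16). It was lower still in IP14D-101 (4.36) and R1 (3.48). Gna14, a G protein alpha subunit, Sapcd2, the carbonic anhydrase Car14 and the calcium-binding Efhd1 and Srl differed from ESC2 by 1.67, 1.54, 1.17, 1.17 and 1.25. Mtmr7, Rnf122 and Nudt7 lie on chromosome 8, which held 6 of the 19. In 5 of the 19, the IP36D-3 mean was under 6.

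Among the 24 lower genes, the zinc finger gene Zfp229 had 5.33, 5.87 and 5.40 in IP36D-3 and means of 8.45 in IP14D-1, 7.91 in IP20D-3 and 8.24 in ESC2 (-2.70 ± 0.20 against ESC2, adjusted p = 1.63e-08). Tmem40 had 6.82, 6.86 and 6.87 in IP36D-3, against 8.49, 8.49 and 8.48 in ESC2 (-1.64 ± 0.10), and 8.79 and 8.94 in IP14D-1 and IP20D-3. Its IP36D-3 arrays lay below every array of the other lines with the same label, which the rule for naming required. The titin gene Ttn (-1.77 ± 0.20), the phospholipase Pla2g1b (-1.72 ± 0.11), Reep3 (-1.93 ± 0.13), the melanosome gene Mreg (-1.48 ± 0.09), the ribosomal protein copy Rpl39l (-1.32 ± 0.11), the Rab escort protein Chm (-1.39 ± 0.21), Zbtb44 (-1.27 ± 0.15) and Tmcc3 (-1.26 ± 0.14) followed. Of Ttn's 5 other probe sets, 2 shared its direction, and Tmcc3 was not called with the most variable probe set (-0.02). Of the 24, 4 lie on the X chromosome. In 4 (Ephx2, Mreg, Pla2g1b and Rpl39l), IP36D-3 was also lower than R1 and IP14D-101, and in 19 it lay within 1 of IP14D-101. Of the 19 higher genes, Car14, Gpr1, Nudt7, Tmem267 and Trim12a were also higher than in R1 and IP14D-101.

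**Figure D4:**
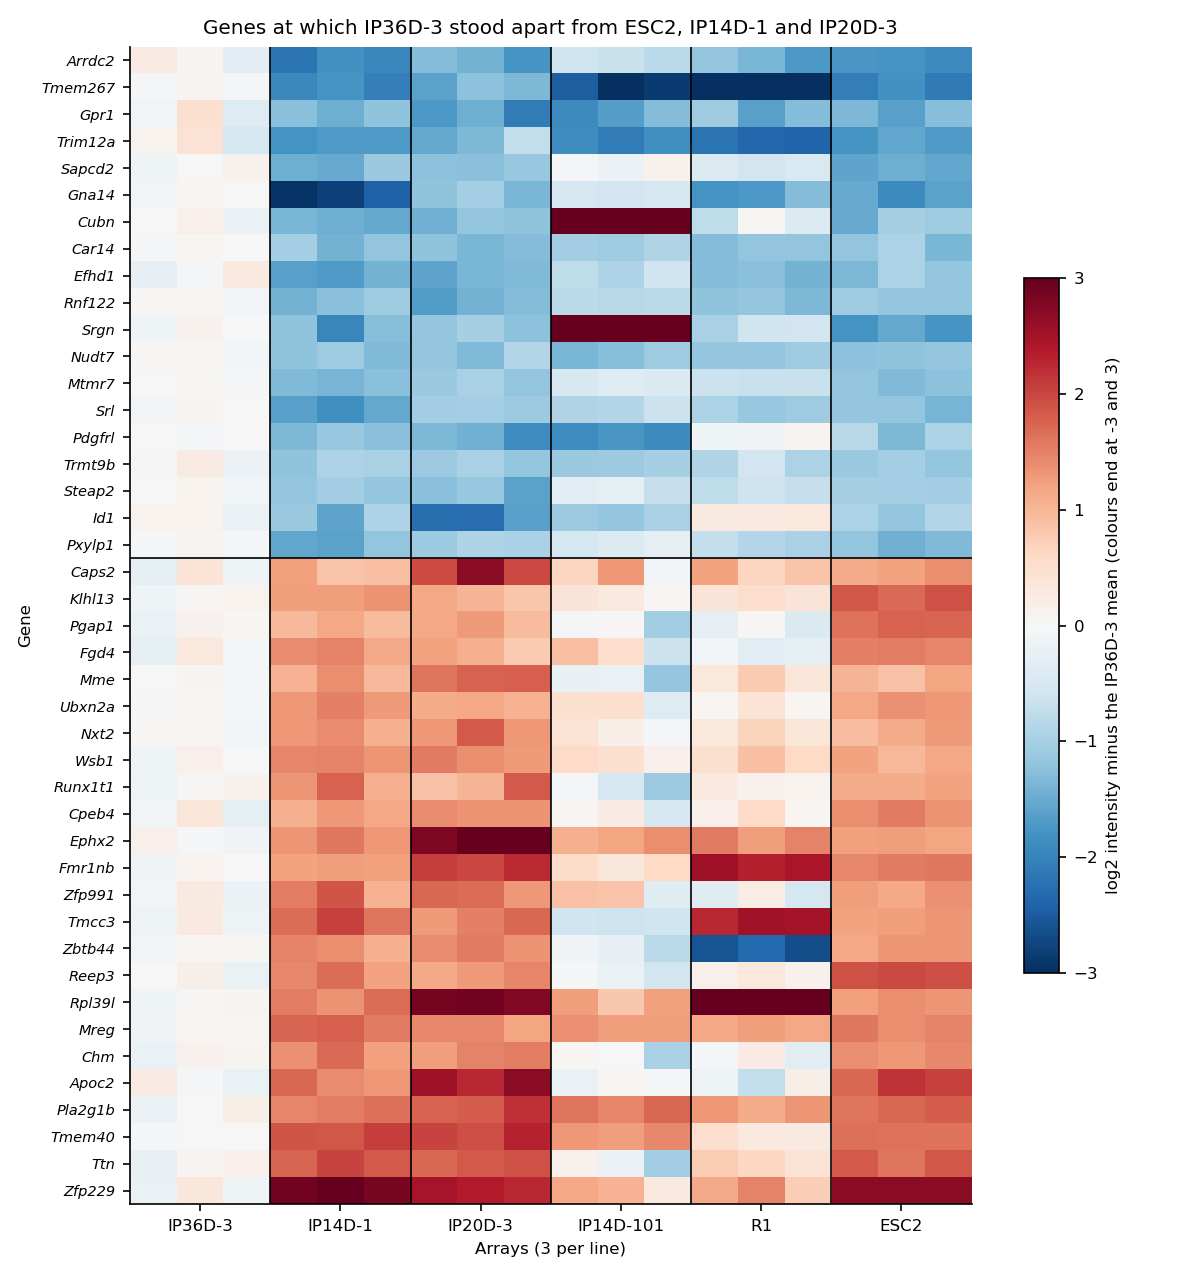
Log2 intensity minus the IP36D-3 mean (colour, ending at -3 and 3) for the 43 genes at which IP36D-3 was called in 1 direction against ESC2, IP14D-1 and IP20D-3, with genes in rows and the 3 arrays of each of the 6 lines in columns. The 19 genes above the line are higher in IP36D-3 and so appear blue in ESC2, IP14D-1 and IP20D-3, and the 24 below it are lower in IP36D-3 and appear red there.

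Counted over all genes, 617 (3.39%) were called between IP36D-3 and IP14D-1, 344 higher and 273 lower, and 772 (4.24%) between IP36D-3 and IP20D-3, 343 higher and 429 lower. Higher genes made up 55.8% of the calls against IP14D-1 and 44.4% against IP20D-3, beside 56.4% against ESC2. The comparisons share the IP36D-3 arrays. IP36D-3 differed from the means of ESC2, IP14D-1 and IP20D-3 by a root mean square of 0.424, 0.432 and 0.449 in log2.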

How the data were processed

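Biotin-labelled cRNA from total RNA was measured on Affymetrix arrays, 3 for each of 6 lines. The deposited values are probe set intensities on a linear scale, which the authors computed with the RMA package of Bioconductor, per the submitters' processing notes and design text. RMA corrects background, normalizes by quantiles and sums up probes, and its version is unstated in the labels. Intensities were taken to log2. Of 45101 probe sets, 64 controls were left out, 34945 had 1 gene symbol in the platform annotation (34741 matched by gene identifier to RefSeq GRCm38.p6, 0 symbols changed), 932 had several and 9160 none. The brightest probe set by mean over all arrays stood for each of 18193 genes.

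Groups came from the titles. A limma 3.58.1 (R 4.3.3) fit gave a mean per line over 18 arrays (12 residual degrees of freedom), with Benjamini-Hochberg adjustment over all genes. Tables were made with pandas 2.3.3 and numpy 2.4.6 under Python 3.11.15, and plots with matplotlib 3.10.9. The fit was tested on simulated data. The members, the 30 gene lists and the naming rule were chosen with earlier results of these data known. The rule names the 15 largest rises and falls among called genes with a higher mean of at least 6 and no overlap, up to 6 called members of each list, the measured Dlk1-Dio3 genes, 10 rises and falls each of chromosome 8 and of the genes that set IP36D-3 apart, and Pou5f1, Nanog, Sox2, Klf4, Myc, Esrrb and Xist. Clone and predicted gene symbols were left out. Genes outside it were chosen after their values were seen.

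Same-numbered arrays of IP36D-3 and ESC2 had correlated deviations of 0.145, 0.091 and -0.002. The value was the highest with its own number in replicates 1 and 2 but not in replicate 3. The numbers were not taken to pair these lines, though a pairing is not excluded. With IP14D-1 the values were 0.183, 0.139 and 0.148, each the highest with its own number, which may be a pairing. With IP20D-3 they were 0.239, 0.143 and 0.005, the highest with their own number in replicates 1 and 2 but not in replicate 3. No label states a pairing, and the p-values come from the fit without a block.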

Additional observations from a re-analysis of the deposited data

Results flagged for a closer look

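Flagged were 5 genes at which IP36D-3 and another iPS line with the B6 x D2 F1 label differed from ESC2 in opposite directions. Each difference was past the size threshold, and the difference between the iPS lines was tested in the limma fit. The share of all genes with this pattern is not given, so the 5 do not stand as a count over all genes. Acta2 differed by -3.18 between IP36D-3 and IP14D-1 (adjusted p = 9.73e-13), being -2.02 from ESC2 in IP36D-3 and 1.16 in IP14D-1. Gna14 differed by 2.73 between the same lines (adjusted p = 5.29e-10), at 1.67 and -1.05 from ESC2. Between IP36D-3 and IP20D-3, the epoxide hydrolase gene Ephx2 differed by -3.0 (adjusted p = 6.63e-12), at -1.22 and 1.78 from ESC2. Id1 differed by 2.06 between them (adjusted p = 2.56e-08), at 1.01 and -1.05 from ESC2, and Rpl39l by -2.86 (adjusted p = 6.63e-12), at -1.32 and 1.53.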

How the results depend on the processing

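The count of 615 genes against ESC2 was also 615 with the arrays of these lines alone and with the replicate block, and lay between 523 and 617 under quantile, median, chromosome 8, array weight, variance and centring alternatives. It was 351 with an offset of 16, 1307 over all probe sets, 1005 with the most variable probe set, 7091 at an adjusted p alone and 1072 by limma's treat test against 0.5. In the same order, chromosome 8 rises (88) gave 51, 153, 121, 486 and 175, and 53 and 49 under repeated quantile normalization and equal array medians. Against IP14D-1 (617) the order gave 388, 1253, 918, 7743 and 1203, against IP20D-3 (772) 479, 1352, 932, 6840 and 1268, and for the genes that set IP36D-3 apart (43) 21, 71, 54, 1626 and 77. Genes at or above the median level gave 435 against ESC2, 501 against IP20D-3 and 26 apart. Without 1 array at a time, the counts were 594 to 689, 82 to 97, 593 to 702, 737 to 818 and 40 to 44. The replicate block, whose numbers may pair IP36D-3 with IP14D-1, left 615, 617, 772 and 43 calls and changed no call of a named gene against ESC2. Centring, and the alternatives for chromosome 8 and for the lists, were added after seeing the data. For the genes that set IP36D-3 apart, higher genes made up 44.2% of calls, against 23.8% with the offset, 23.1% at or above the median level, 76.9% at an adjusted p alone and 68.8% by treat. Centring gave 272 higher and 316 lower against ESC2, or 46.3% higher in place of 56.4%, and repeated quantile normalization gave 42.0% higher in place of 55.8% against IP14D-1. Of 117 named genes called against ESC2, 88 were called in every one of 18 alternatives that held them, and 0 reversed. The treat test and the fit over all probe sets were not among the 18. Other probe sets of a gene therefore entered only where they were the most variable. The offset of 16 lost 23 calls. With 3 arrays a line and 1 line a group, precision between arrays says nothing of other iPS or ES lines. Low signals limit the size of differences, and 102 of the 615 calls had a higher mean under 6.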
